A study of Homo sapiens with 12 samples.

Results

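The genes described here are 10 well-known targets of the transcription factor p53 and its relatives, namely CDKN1A, SFN, GADD45A, MDM2, CCNG1, TP53AIP1, BBC3, FAS, TP53INP1 and SESN1. They were taken by symbol from the 18404 genes that the arrays measured through a probe set with a single gene symbol, and all 10 were found, each with 1 probe set. The samples were FaDU and JHU-029, 2 established cancer lines from squamous carcinomas of the head and neck. Each was given a lentiviral shRNA, either against TP63 (shTP63) or a control shRNA (shControl). Levels of mRNA were read 72 hours after knockdown on 12 Affymetrix Human Gene ST arrays, in the groups FaDU shTP63, FaDU shControl, JHU-029 shTP63 and JHU-029 shControl with 3 arrays each. Every group therefore carried a lentiviral construct, and untreated cells are not analysed here. The labels do not say how many hairpins were used, whether replicates were separate cultures, or which of the listed media (RPMI, DMEM or DMEM/F12 with serum) went with which line. The p-values thus measure only the spread between these arrays. The level of TP63 is not analysed here.

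p53, p63 and p73 bind closely related DNA elements built from a pair of decamers, and target genes often carry such elements near their start sites or in introns. p53 activates these genes after DNA damage and other stress, which halts the cell cycle, starts apoptosis, or adjusts autophagy and metabolism. In squamous epithelium the main form of p63 lacks the full transactivation domain of p53, and it is known both to activate and to repress genes that p53 switches on. The series asks how p63 acts in squamous carcinoma, and the comparison below gives the levels of these targets when TP63 was targeted.

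Promoter windows, from 250 bases before to 50 bases after an annotated start, were found in the RefSeq table (GRCh38.p14) for 8 of the 10 genes, as 17 windows in all. GADD45A and TP53INP1 were not among them. The p53 full site, a run of 20 bases made of a pair of decamers without a spacer, was searched by name with at most 3 mismatches. The consensus is its own reverse complement, so that 1 pass covers both strands. A match was found in 5 of the 17 windows, against 5.2% of all 35116 windows in the table. The 5 windows include overlapping MDM2 windows that hold the same sites. By gene, a match was found in 4 of the 8 (MDM2, FAS, SESN1 and TP53AIP1), for which no share over all genes was computed. The genes were listed as p53 targets in the first place, and a match describes letters and not a bound site. The 250 bases before the start are shown for 3 genes with a match and for CDKN1A, which has none in its window, each written 5′ to 3′ along the gene's own strand. Capitals mark the p53 matches in MDM2, FAS and SESN1, and the GC box GGGCGG (searched on both strands) in CDKN1A.
MDM2 (chr12:68808767-68809016, + strand): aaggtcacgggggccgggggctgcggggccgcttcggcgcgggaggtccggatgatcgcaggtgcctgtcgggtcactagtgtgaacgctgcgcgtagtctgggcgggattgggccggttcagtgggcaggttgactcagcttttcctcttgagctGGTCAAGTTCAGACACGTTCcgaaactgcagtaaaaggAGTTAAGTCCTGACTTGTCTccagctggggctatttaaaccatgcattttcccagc
FAS (chr10:88991181-88991430, + strand): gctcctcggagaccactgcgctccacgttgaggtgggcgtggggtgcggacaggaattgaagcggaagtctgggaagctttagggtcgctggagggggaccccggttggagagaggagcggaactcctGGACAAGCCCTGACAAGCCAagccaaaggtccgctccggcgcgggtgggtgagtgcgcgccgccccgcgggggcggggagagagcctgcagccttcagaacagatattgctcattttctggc
SESN1 (chr6:109008989-109009238, - strand): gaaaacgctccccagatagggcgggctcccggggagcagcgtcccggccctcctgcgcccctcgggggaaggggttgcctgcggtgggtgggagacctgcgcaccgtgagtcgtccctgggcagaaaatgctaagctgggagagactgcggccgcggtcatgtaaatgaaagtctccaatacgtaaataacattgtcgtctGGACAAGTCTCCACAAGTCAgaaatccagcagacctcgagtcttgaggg
CDKN1A (chr6:36678464-36678713, + strand): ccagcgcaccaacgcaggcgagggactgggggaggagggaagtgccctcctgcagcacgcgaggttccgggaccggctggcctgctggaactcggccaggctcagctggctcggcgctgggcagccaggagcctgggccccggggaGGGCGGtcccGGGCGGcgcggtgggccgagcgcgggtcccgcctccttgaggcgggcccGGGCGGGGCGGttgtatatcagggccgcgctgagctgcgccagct
In MDM2 a match with 2 mismatches lies at -94 to -75 from the start and another with 3 mismatches at -56 to -37. An internal promoter of MDM2 is known to respond to p53. The FAS match, with 2 mismatches, lies at -122 to -103, and the SESN1 match, with 3 mismatches, lies at -49 to -30. In TP53AIP1 a match with 3 mismatches lies at -48 to -29 of the window chr11:128942822-128943121. Each position counts from the annotated start of the window given. MDM2, FAS, SESN1 and TP53AIP1 also have windows at other annotated starts, and some of those hold no match. CDKN1A holds 4 GC boxes in the bases shown, some of them overlapping, and 45.0% of all windows hold at least 1. The best known p53 sites of CDKN1A lie further upstream and so outside this window.

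The median intensity of an array lay between 6.46 and 6.56 on the log2 scale. Log2 intensities of arrays of the same group correlated at 0.993 to 0.997 across probe sets, whereas pairs with 1 array from each line correlated at 0.940 to 0.951. No pair of arrays held identical values. Of 10 squamous epithelial markers, 8 were measured, and all 8 lay above the highest array median in every group. In 2 of the FaDU shControl arrays the title has the word new, whose meaning is not given. Leaving both out leaves 1 FaDU shControl array, so p-values from that setting are not given. Values below are log2 intensities of a probe set, and differences are shTP63 minus shControl on that scale, with the standard error (SE) of a limma fit to all 12 arrays. A gene is said to rise or fall where its two-sided limma p, adjusted by Benjamini and Hochberg over 18404 genes, was under 0.05.

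In FaDU cells 5 of the 10 genes fell and 1 rose with the TP63 shRNA. SFN, GADD45A and CDKN1A, which restrain the cell cycle, fell, and so did MDM2 and FAS, while TP53INP1 rose. Among all genes tested, 14.2% fell and 12.4% rose in FaDU. The median difference of the 10 genes was -0.26, against 0.016 over all genes. In JHU-029 cells 1 gene fell, TP53AIP1, and 1 rose, CCNG1, where 1.35% of all genes fell and 1.8% rose. The median difference there was 0.033, against 0.00028 over all genes. No gene of the 10 passed the test in both lines. The share of all genes that did so was not computed, so this is not read as a result about the 10.

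The squamous markers moved in FaDU as well. The summed linear intensity of the 8 measured markers was 9555 to 10133 in FaDU shTP63 and 15278 to 16019 in FaDU shControl, and 7 of the 8 fell there, among them the basal keratin KRT5 by 1.41. In JHU-029 the sums were 34378 to 36501 with shTP63 and 36637 to 38653 with shControl, and 0 of 8 passed the test by limma, with 4 under an unadjusted p of 0.05. By limma 0 of 8 fibroblast markers passed in either line, with 1 under an unadjusted p of 0.05 in each, and COL1A1 lay above the highest array median in every group. Of 8 measured immune markers, LYZ and CD14 rose in FaDU by 0.76 and 0.51, and of 6 endothelial markers CDH5 rose there by 1.00. LYZ averaged 4.89 in FaDU shTP63 and 4.13 in FaDU shControl, below the array medians, so the size of its rise is uncertain. The endothelial sum was 1060 to 1145 in FaDU shTP63 and 687 to 713 in FaDU shControl, against 270 to 304 in JHU-029 shTP63 and 278 to 299 in JHU-029 shControl. CDH5 alone of the 6 endothelial markers passed in FaDU, and the median difference of the 6 there was 0.001. The part of these shifts in the results for the 10 genes was not tested. In bulk RNA, fewer cells of a type and less RNA per cell cannot be told apart.

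**Figure D1:**
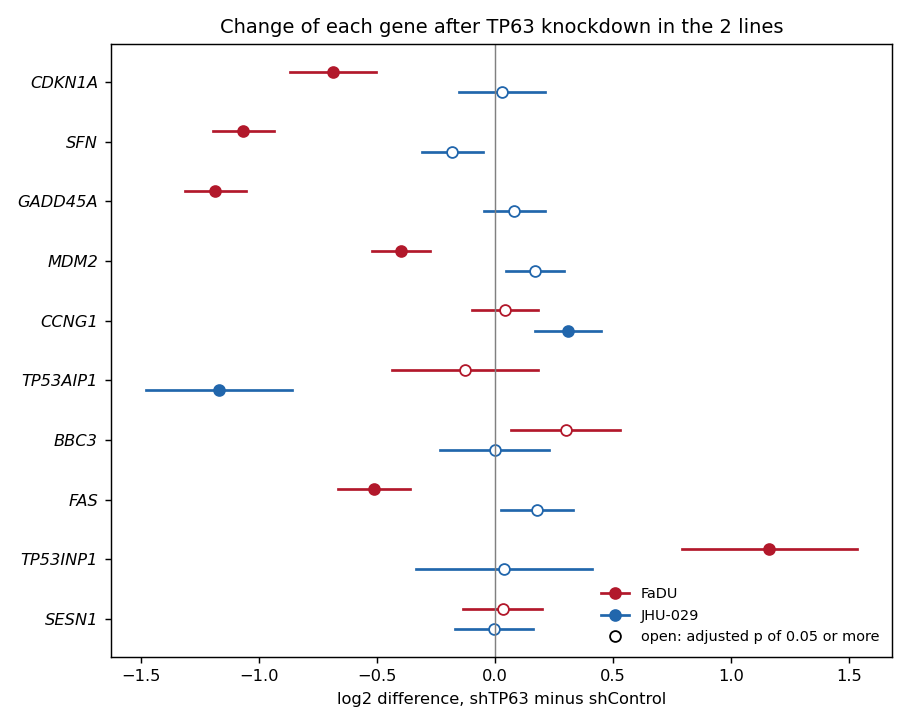
Log2 difference (shTP63 minus shControl, horizontal axis) of each of the 10 genes in FaDU (red) and JHU-029 (blue), with the 95% confidence interval of the limma fit (3 arrays per group); filled points passed an adjusted p of 0.05. In FaDU 5 filled points lie left of 0 and TP53INP1 lies right of it, whereas in JHU-029 TP53AIP1 lies left of 0 and CCNG1 right of it.

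The cell cycle genes gave the largest falls among the 10 in FaDU. GADD45A encodes a stress sensor that binds cell cycle and DNA repair proteins. Its probe set (7902227) read 7.76, 7.73 and 7.64 on the FaDU shTP63 arrays, against 8.90, 8.81 and 8.98 on the FaDU shControl arrays. All 3 knockdown arrays lay below all 3 controls, by about 1 log2 unit. GADD45A was 2.27-fold lower with shTP63 (log2 difference -1.18, SE 0.0596, adjusted p = 7.33e-08). On JHU-029 arrays it read 8.76, 8.78 and 8.83 with shTP63 and 8.76, 8.70 and 8.67 with shControl. Those ranges touched, and the difference of 0.082 did not pass (adjusted p = 0.631, 95% interval -0.05 to 0.21). GADD45A levels in FaDU shTP63 were thus the lowest of the 4 groups and stood apart, while the other three groups lay close together.

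SFN encodes stratifin, an epithelial adaptor protein that keeps mitotic cyclin complexes in the cytoplasm. It read 10.89, 10.92 and 10.85 in FaDU shTP63, against 11.88, 11.91 and 12.07 in FaDU shControl (probe set 7899265). The knockdown arrays lay about 1 log2 unit below the controls and varied little among themselves. The fall was 2.10-fold (log2 difference -1.07, SE 0.0593, adjusted p = 1.48e-07). In JHU-029 the 3 shTP63 arrays read 12.10, 12.12 and 12.16, and the 3 shControl arrays read 12.36, 12.30 and 12.26. The JHU-029 groups did not overlap either, and shTP63 was again the lower, but the difference of -0.18 missed the threshold (adjusted p = 0.142). It passed where the variance prior was given an intensity trend (adjusted p = 0.0136). It did not pass in any of the 12 fits with 1 array left out (adjusted p = 0.0875 to 0.383). SFN gave 4 groups that stood apart from one another, in the order JHU-029 shControl, JHU-029 shTP63, FaDU shControl and FaDU shTP63 from high to low.

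CDKN1A encodes p21, the inhibitor of cyclin-dependent kinases through which p53 arrests the cell cycle. Its probe set (8119088) read 7.08, 6.95 and 7.06 in FaDU shTP63 and 7.54, 7.80 and 7.82 in FaDU shControl. The 2 groups were apart, with the first control closest to the knockdown arrays. CDKN1A fell 1.61-fold (log2 difference -0.69, SE 0.0836, adjusted p = 6.34e-05). The JHU-029 arrays read 9.43, 9.59 and 9.67 with shTP63 and 9.50, 9.57 and 9.53 with shControl. The JHU-029 controls lay inside the range of the knockdown arrays, with a difference of 0.028 (adjusted p = 0.944, 95% interval -0.15 to 0.21). All JHU-029 values were well above all FaDU values.

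**Figure D2:**
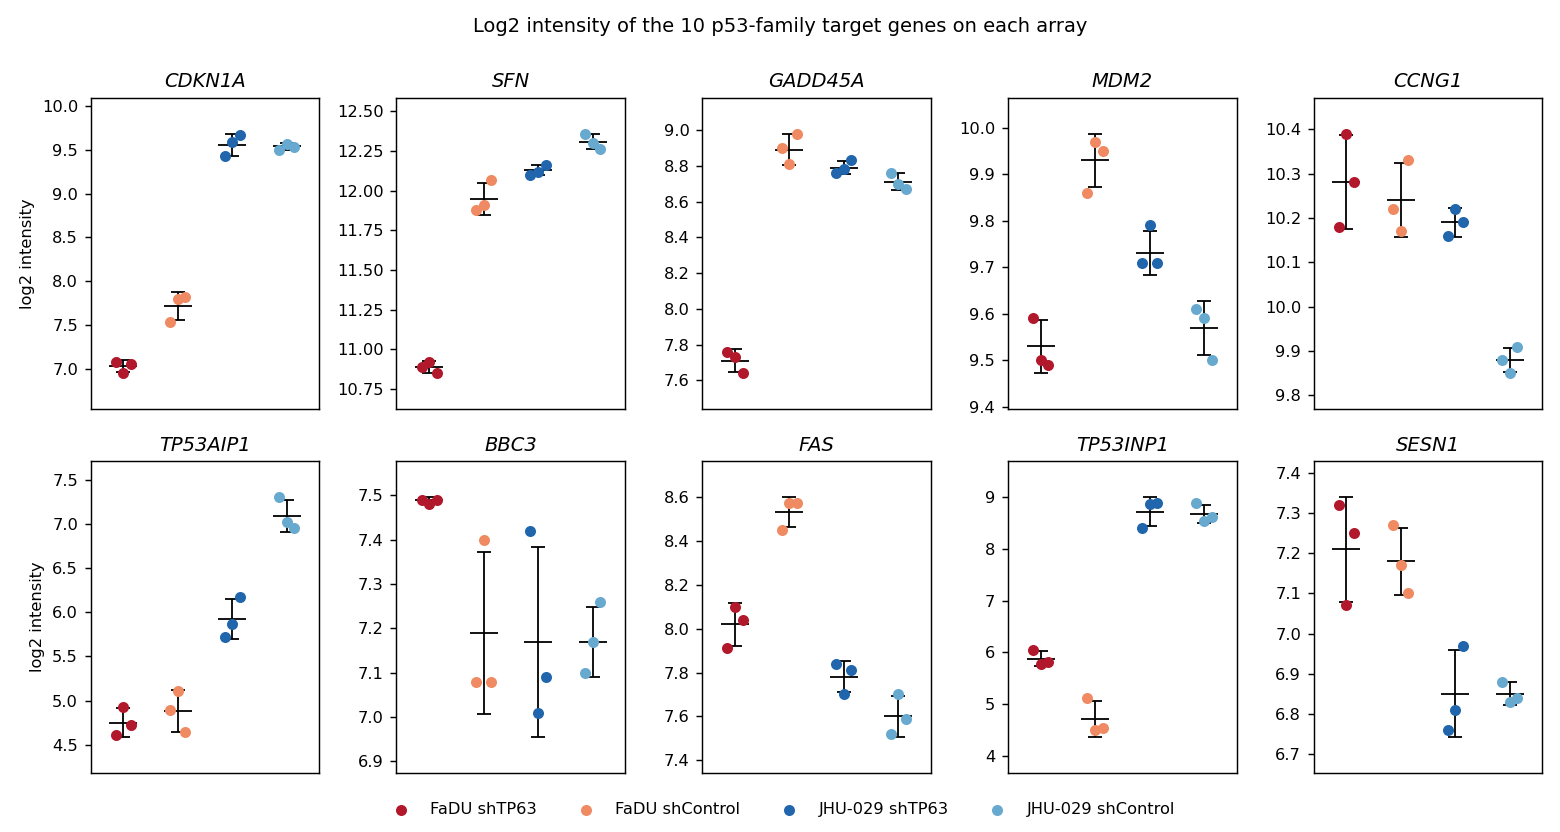
Log2 intensity (vertical axis, its own range in each panel) of the 10 genes on every array, in FaDU shTP63, FaDU shControl, JHU-029 shTP63 and JHU-029 shControl from left to right; points are arrays, long lines are group means and bars are SD over 3 arrays. The 3 FaDU shTP63 points of CDKN1A, SFN, GADD45A, MDM2 and FAS lie below the 3 FaDU shControl points, and those of TP53INP1 lie above.

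Of the feedback genes, MDM2 fell in FaDU and CCNG1 rose in JHU-029. MDM2, the ubiquitin ligase that marks p53 for degradation, read 9.59, 9.50 and 9.49 in FaDU shTP63, against 9.86, 9.97 and 9.95 in FaDU shControl (probe set 7956989). All 3 knockdown arrays were lower than all controls. The fall was 1.32-fold (log2 difference -0.40, SE 0.0567, adjusted p = 0.000212). On JHU-029 arrays MDM2 read 9.71, 9.79 and 9.71 with shTP63 and 9.61, 9.59 and 9.50 with shControl. There the knockdown arrays were the higher ones without overlap, by 0.17, which missed the threshold (adjusted p = 0.154). FaDU shTP63 and JHU-029 shControl had overlapping MDM2 levels.

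CCNG1 encodes cyclin G1, which recruits a phosphatase to MDM2. It read 10.16, 10.22 and 10.19 in JHU-029 shTP63, against 9.88, 9.85 and 9.91 in JHU-029 shControl (probe set 8109697). The knockdown arrays all lay above the controls. CCNG1 rose 1.24-fold (log2 difference 0.31, SE 0.0638, adjusted p = 0.0211). That call did not hold when any 1 of the 3 JHU-029 shControl arrays, or JHU-029 shTP63 replicate 2 or 3, was left out, with differences of 0.29 to 0.32 and adjusted p of up to 0.0996. In FaDU it read 10.18, 10.39 and 10.28 with shTP63 and 10.22, 10.17 and 10.33 with shControl. These ranges overlapped, and the difference was 0.043 (adjusted p = 0.686, 95% interval -0.10 to 0.18). CCNG1 in JHU-029 shTP63 overlapped both FaDU groups, and JHU-029 shControl lay below the other three.

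Of the 3 apoptosis genes, TP53AIP1 fell in JHU-029, FAS fell in FaDU, and BBC3 passed in neither line. TP53AIP1 encodes a mitochondrial protein that promotes cell death. Its probe set (7952631) read 5.72, 5.87 and 6.17 in JHU-029 shTP63, against 7.30, 7.02 and 6.95 in JHU-029 shControl. Every knockdown array was lower than every control. TP53AIP1 fell 2.25-fold in JHU-029 (log2 difference -1.17, SE 0.142, adjusted p = 0.000978). In FaDU it read 4.61, 4.93 and 4.72 with shTP63 and 4.89, 5.11 and 4.64 with shControl. The FaDU groups overlapped at a low level, and their difference was -0.13 (adjusted p = 0.571, 95% interval -0.44 to 0.18). Both FaDU groups and JHU-029 shTP63 lay below the median of every array, so the sizes of these differences are uncertain.

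FAS encodes a death receptor at the cell surface. It read 7.91, 8.10 and 8.04 in FaDU shTP63, against 8.45, 8.57 and 8.57 in FaDU shControl (probe set 7929032). The groups were apart, and FAS fell 1.43-fold (log2 difference -0.51, SE 0.0703, adjusted p = 0.000158). On JHU-029 arrays FAS read 7.84, 7.70 and 7.81 with shTP63 and 7.52, 7.70 and 7.59 with shControl. Those groups met at 7.70, and the difference of 0.18 did not pass (adjusted p = 0.24, 95% interval 0.026 to 0.33 before any adjustment). FAS was higher in either FaDU group than in either JHU-029 group.

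BBC3 encodes PUMA, a protein that binds and blocks survival factors of the BCL2 family. It read 7.49, 7.48 and 7.49 in FaDU shTP63 and 7.08, 7.40 and 7.08 in FaDU shControl (probe set 8037872). The knockdown arrays were nearly equal and all above the controls, of which the second was closest. The difference of 0.30 (SE 0.106) lay just outside the threshold (adjusted p = 0.0561). It passed under 3 other scalings between arrays, with dim genes left out, with an intensity trend in the variance prior, and without FaDU shControl replicate 2 or JHU-029 shTP63 replicate 1 or 2 (adjusted p = 0.0121 to 0.048). It did not pass in 9 of the 12 fits with 1 array left out (adjusted p of up to 0.173). In JHU-029 BBC3 read 7.42, 7.01 and 7.09 with shTP63 and 7.10, 7.17 and 7.26 with shControl. The shTP63 arrays spread on both sides of the controls, with a difference of -0.0014 (adjusted p = 0.997, 95% interval -0.23 to 0.23).

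The stress genes comprised the 1 rise in FaDU and a gene with no call in either line. TP53INP1 encodes a stress-induced protein that takes part in autophagy and cell death. It read 6.04, 5.78 and 5.81 in FaDU shTP63, against 5.11, 4.50 and 4.54 in FaDU shControl (probe set 8151890). All knockdown arrays lay above all controls, and the first array of each group was the highest. TP53INP1 rose 2.24-fold (log2 difference 1.16, SE 0.171, adjusted p = 0.000265). All FaDU values were below the median of every array, so the size of this rise is uncertain. In JHU-029 it read 8.40, 8.87 and 8.89 with shTP63 and 8.89, 8.54 and 8.62 with shControl. The JHU-029 groups overlapped, with a difference of 0.038 (adjusted p = 0.964, 95% interval -0.33 to 0.41).

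SESN1 encodes sestrin 1, a stress-induced brake on growth signalling. It read 7.32, 7.07 and 7.25 in FaDU shTP63 and 7.27, 7.17 and 7.10 in FaDU shControl (probe set 8128698). In JHU-029 it read 6.76, 6.81 and 6.97 with shTP63 and 6.88, 6.83 and 6.84 with shControl. The groups of each line overlapped. The differences were 0.031 in FaDU (95% interval -0.14 to 0.20, adjusted p = 0.817) and -0.0049 in JHU-029 (95% interval -0.17 to 0.16, adjusted p = 0.99). Of the 4 genes with a promoter match, MDM2 and FAS fell in FaDU, while SESN1 and TP53AIP1 did not pass there. Of the genes with windows but no match, CDKN1A and SFN fell in FaDU, while CCNG1 and BBC3 did not pass there. A link between a match and a fall was not tested.

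The test of the difference between the FaDU and JHU-029 effects passed for 7 of the 10 genes. For the FaDU effect minus the JHU-029 effect, 5 genes were lower and 2 higher, against 8.25% and 4.97% of all genes. GADD45A gave the largest negative difference (-1.27, SE 0.0842, adjusted p = 4.49e-06), followed by SFN (-0.89, adjusted p = 4.91e-05), CDKN1A (-0.72, adjusted p = 0.00194), FAS (-0.69, adjusted p = 0.000786) and MDM2 (-0.57, adjusted p = 0.000716). TP53INP1 (1.12, SE 0.241, adjusted p = 0.00891) and TP53AIP1 (1.04, SE 0.201, adjusted p = 0.00487) were positive. For TP53INP1 the positive value came with a rise in FaDU, and for TP53AIP1 with a fall in JHU-029. TP53AIP1 lay below the median of every array in both FaDU groups, where a fall of that size may not be measurable. CCNG1 had a difference of -0.27, which missed the threshold (adjusted p = 0.0746, 95% interval -0.46 to -0.07 before adjustment). It passed with dim genes left out, with an intensity trend in the variance prior, and without FaDU shTP63 replicate 2 (adjusted p = 0.0192 to 0.0389). It did not pass in 11 of the 12 fits with 1 array left out (adjusted p of up to 0.156). BBC3 (0.30, 95% interval -0.03 to 0.63) and SESN1 (0.036, 95% interval -0.20 to 0.27) did not pass. The median of the 10 genes was -0.42, against 0.01 over all genes.

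The control arrays of the 2 lines differed in 9 of the 10 genes. FaDU shControl was higher than JHU-029 shControl for 5 and lower for 4, where 33.4% of all genes were higher and 30.4% were lower. TP53INP1 was 15.7-fold lower in FaDU, with a mean of 4.71 ± 0.344, against 8.68 ± 0.181 in JHU-029 (SD, n = 3 each). TP53AIP1 was 4.62-fold lower, at 4.88 ± 0.236 in FaDU and 7.09 ± 0.184 in JHU-029. Both FaDU levels lay below the median of every array, so the sizes of these folds are uncertain. CDKN1A was 3.53-fold lower, at 7.72 ± 0.158 in FaDU and 9.54 ± 0.0355 in JHU-029, and SFN was 1.28-fold lower. FAS was 1.90-fold higher in FaDU, with a mean of 8.53 ± 0.068, against 7.60 ± 0.0934 in JHU-029. CCNG1, MDM2 and SESN1 were higher by 0.36, 0.36 and 0.33 (adjusted p = 0.000254, 9.68e-05 and 0.00222). GADD45A was higher by 0.18 (adjusted p = 0.0163). The GADD45A call did not hold without JHU-029 shControl replicate 3 (0.16, adjusted p = 0.0615), without FaDU shControl replicate 3 (0.14, adjusted p = 0.068), or with each array centred on its median (0.13, adjusted p = 0.12). The SESN1 difference was 0.25 without the FaDU controls whose titles say new. BBC3 had the same mean in both controls within error (difference 0.012, 95% interval -0.22 to 0.24). This comparison uses the same control arrays as the knockdown comparisons.

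Relatives of the 10 genes within their gene families came to 15, all measured. In FaDU 6 of the 15 rose and 2 fell, and in JHU-029 1 rose and 1 fell. Over all genes 12.4% rose and 14.2% fell in FaDU, so the share of falls among the paralogs was near that background, and 1.8% rose and 1.35% fell in JHU-029. CDKN1B, which encodes the p21 relative p27, rose where CDKN1A fell. It averaged 10.77 ± 0.072 in FaDU shTP63 and 9.99 ± 0.0674 in FaDU shControl (SD, n = 3 each), a difference of 0.77 (SE 0.056, adjusted p = 1.13e-06). In JHU-029 CDKN1B averaged 9.45 ± 0.0345 with shTP63 and 9.17 ± 0.0241 with shControl, a difference of 0.28 (adjusted p = 0.0196). That call did not hold without any 1 of the 3 JHU-029 shControl arrays or without JHU-029 shTP63 replicate 2 or 3 (adjusted p of up to 0.0926). CDKN1C did not pass in either line.

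**Figure D3:**
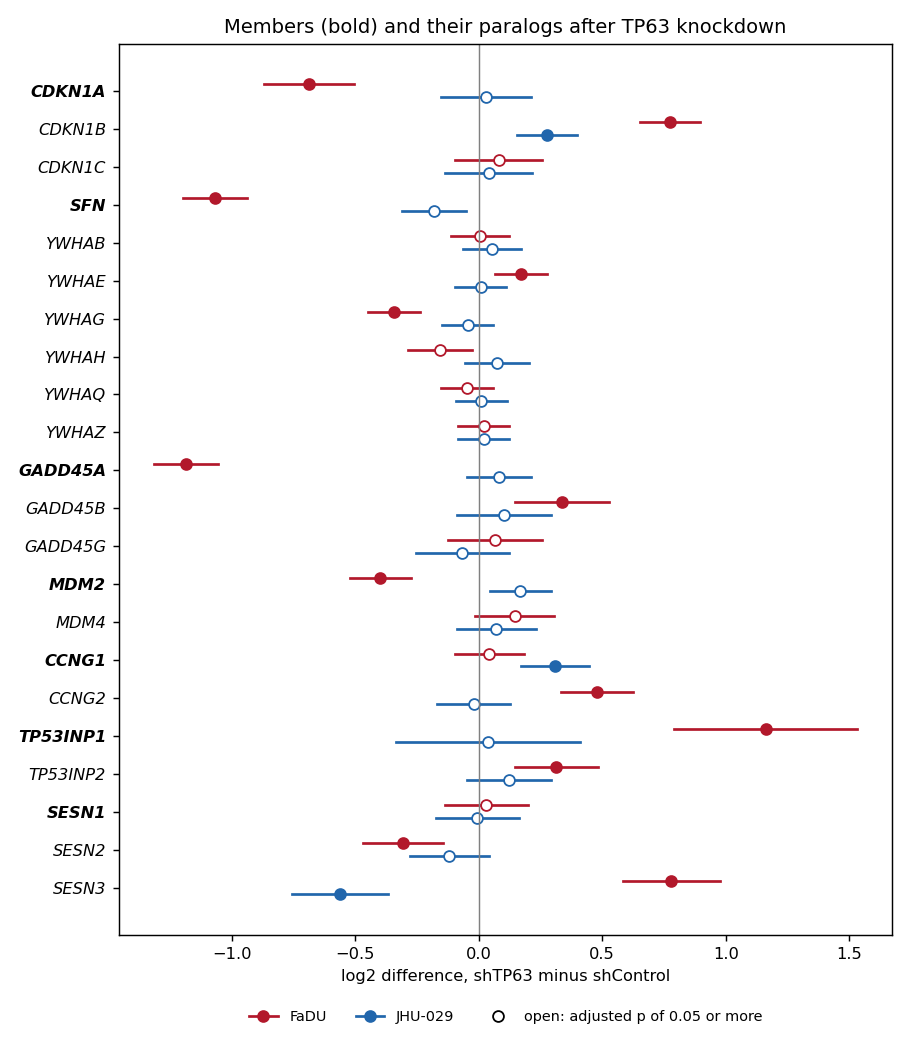
Log2 difference (shTP63 minus shControl, horizontal axis) of the genes that have paralogs (bold) and of those paralogs below each, in FaDU (red) and JHU-029 (blue), with 95% confidence intervals of the limma fit; filled points passed an adjusted p of 0.05. CDKN1B, GADD45B and CCNG2 lie right of 0 in FaDU, and SESN3 lies right of 0 in FaDU and left of 0 in JHU-029.

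Of the sestrin genes, SESN3 passed in both lines in opposite directions. It averaged 8.62 ± 0.101 in FaDU shTP63 and 7.84 ± 0.137 in FaDU shControl, and rose by 0.78 (SE 0.09, adjusted p = 4.24e-05). In JHU-029 SESN3 averaged 10.05 ± 0.16 with shTP63 and 10.61 ± 0.0458 with shControl, and fell by 0.56 (SE 0.09, adjusted p = 0.00507). SESN3 had the largest difference between the lines among the paralogs, 1.34. SESN2 fell in FaDU by 0.31 and SESN1 did not pass. GADD45B rose in FaDU by 0.34, a call that did not hold without FaDU shControl replicate 1 or FaDU shTP63 replicate 2 (adjusted p = 0.0505 each). The GADD45B difference was 0.33 without the FaDU controls whose titles say new. GADD45G and MDM4 did not pass in either line. CCNG2 rose in FaDU by 0.48 and TP53INP2 rose by 0.31. Among the relatives of SFN, which encode the other adaptors of that family, YWHAG fell in FaDU by 0.34, YWHAE rose by 0.17, and YWHAB, YWHAH, YWHAQ and YWHAZ did not pass. The YWHAE call did not hold with each line fitted alone (adjusted p = 0.098) or without FaDU shControl replicate 2 (adjusted p = 0.0597). Nor did it hold with each array centred on its median (adjusted p = 0.0544). The YWHAE difference was 0.15 without the FaDU controls whose titles say new.

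For each gene that passed in a line, the 3 genes with the most similar profile over the 12 arrays were found by the root mean square distance of log2 intensities, after each gene was centred on its own mean. PACSIN3 was nearest to MDM2, at a distance of 0.056. MDM2 itself had a spread of 0.164 by the same measure, and PACSIN3 differed by -0.39 in FaDU and 0.10 in JHU-029. The nearest genes to the cell cycle members were IGFBP4 for CDKN1A (distance 0.0965), UGDH for SFN (0.0911) and TUBE1 for GADD45A (0.125). UACA was nearest to CCNG1 (0.0653) and CSPP1 to FAS (0.0814). ADH7 was nearest to TP53AIP1 (0.143), with differences of -0.087 in FaDU and -1.21 in JHU-029. The next gene for TP53AIP1, SLC24A3, was farther away (0.272). OAS2 was nearest to TP53INP1 (0.194), which had a spread of 1.77 over the arrays. None of these nearest genes is another of the 10. They were picked from all other genes measured, so this is not read as a result. All points share the same 12 arrays, and most of the spread in several profiles lay between the lines.

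A wider list of 71 p53 target genes, none of them among the 10, had 65 measured members. The others are not analysed here. SESN2, also a paralog above, and PPM1D, also a regulator below, are counted in it. In FaDU 20 of the 65 rose and 20 fell, with a median difference of 0.051. In JHU-029 8 rose and 2 fell, with a median of 0.031. Over all genes the medians were 0.016 in FaDU and 0.00028 in JHU-029, with 12.4% higher and 14.2% lower in FaDU and 1.8% higher and 1.35% lower in JHU-029. Leaving out 1 array gave 4 to 9 rises and 0 to 3 falls in JHU-029. The lowest count of rises, 4, was reached without any 1 of the 3 JHU-029 shControl arrays or without JHU-029 shTP63 replicate 2 or 3, and it was 5 without JHU-029 shTP63 replicate 1. In FaDU the growth arrest genes gave 5 rises and 3 falls of 10, and the apoptosis genes 4 rises and 5 falls of 16. The metabolism, redox and autophagy genes gave 5 rises and 2 falls of 13, and the DNA repair and nucleotide supply genes 2 rises and 2 falls of 7. The remaining genes, of other functions, gave 4 rises and 8 falls of 19. All these counts are to be read against the same 12.4% and 14.2% of all genes.

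**Figure D4:**
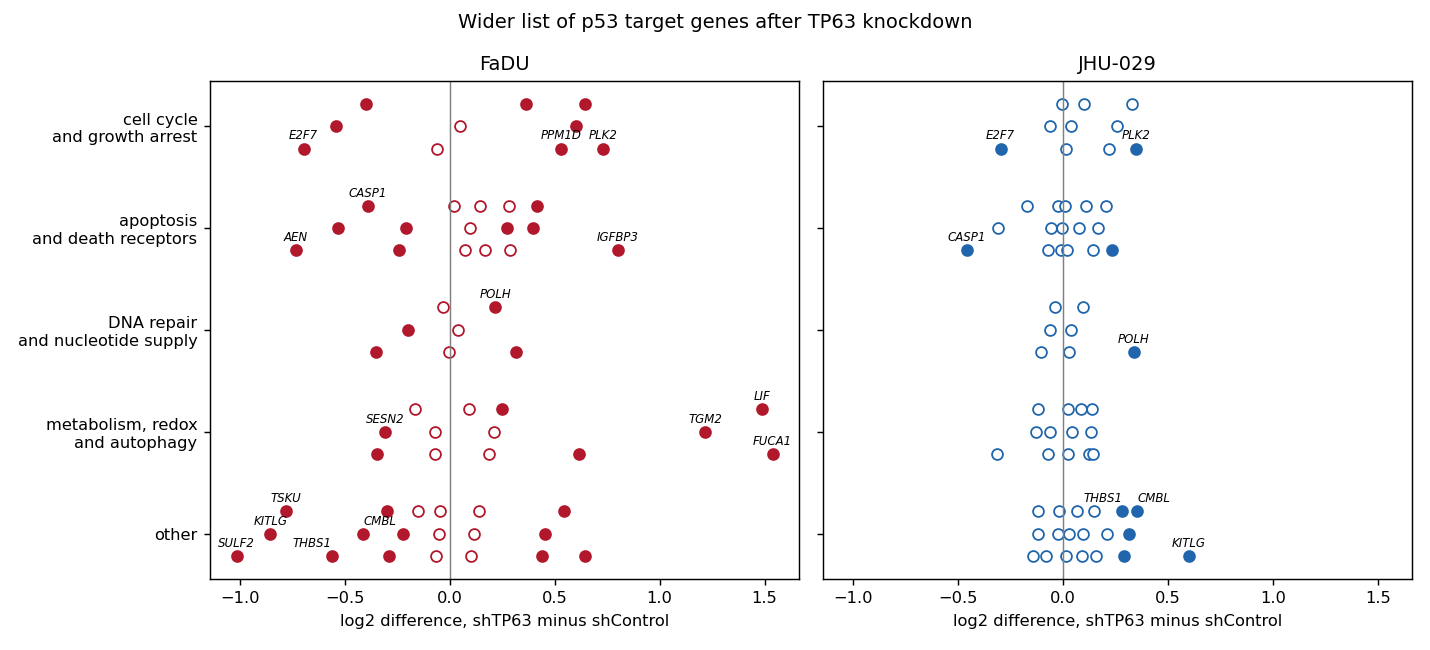
Log2 difference (shTP63 minus shControl, horizontal axis) of 65 further p53 target genes by function (rows; heights within a row only separate the points), in FaDU (left) and JHU-029 (right); filled points passed an adjusted p of 0.05, and genes named in the text carry their symbol. Filled points lie on both sides of 0 in FaDU, 20 on each side, while in JHU-029 there are 8 to the right and 2 to the left.

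In FaDU the largest rises of the wider list were those of FUCA1, a lysosomal fucosidase (1.54, SE 0.0788), LIF, a cytokine (1.49, SE 0.106), TGM2, a transglutaminase (1.22, SE 0.117), and IGFBP3, a binding protein of insulin-like growth factors (0.80, SE 0.0718). FUCA1 averaged 8.30 in FaDU shTP63 and 6.77 in FaDU shControl. The largest falls were those of SULF2, an extracellular sulfatase (-1.01), KITLG, the ligand of the receptor KIT (-0.85), TSKU, a secreted protein (-0.78), and AEN, an exonuclease of apoptosis (-0.73). In JHU-029 KITLG rose by 0.60, CMBL, a hydrolase, by 0.36, PLK2, a polo-like kinase, by 0.35 and POLH, a translesion DNA polymerase, by 0.34. CASP1, the inflammatory caspase, fell there by 0.46 and E2F7, a repressor of cell cycle genes, fell by 0.30. The POLH and E2F7 calls did not hold without any 1 of the 3 JHU-029 shControl arrays or without JHU-029 shTP63 replicate 2 or 3, and the CASP1 call did not hold without JHU-029 shControl replicate 2 (adjusted p = 0.0514).

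KITLG passed in both lines in opposite directions. It averaged 6.68 ± 0.212 in FaDU shTP63 and 7.54 ± 0.121 in FaDU shControl, against 8.88 ± 0.0226 in JHU-029 shTP63 and 8.28 ± 0.0909 in JHU-029 shControl (SD, n = 3 each). Its FaDU effect minus its JHU-029 effect was -1.46 (SE 0.137, adjusted p = 4.81e-05). CMBL did the same, with -0.41 in FaDU and 0.36 in JHU-029, and so did THBS1, a matrix glycoprotein, with -0.56 and 0.28. The THBS1 call in JHU-029 did not hold without any 1 of the 6 JHU-029 arrays (adjusted p of up to 0.084). Over the wider list 10 genes were higher and 12 lower in the FaDU effect than in the JHU-029 effect, against 4.97% and 8.25% of all genes. They were led upwards by LIF (1.46), FUCA1 (1.41) and TGM2 (1.29) and downwards by KITLG, SULF2 (-1.08) and THBS1 (-0.84). LIF read at most 5.81 on the JHU-029 arrays, below the median of every array, so the size of its difference is uncertain.

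Of 22 genes of the p53 family and its regulators, 21 were measured. MDM4 is also counted among the paralogs, and PPM1D also in the wider list. In FaDU 4 rose and 2 fell, and in JHU-029 0 passed by limma, with 3 under an unadjusted p of 0.05. The FaDU shares were near those of all genes, 12.4% higher and 14.2% lower, and are not read as a result about these regulators. PPM1D, a phosphatase that counters p53 signalling, was 0.53 higher with shTP63 (SE 0.0802, adjusted p = 0.000327), and the acetyltransferase EP300 was 0.41 higher (SE 0.0612, adjusted p = 0.000298). COP1, a ubiquitin ligase, rose by 0.36, and the acetyltransferase KAT5 by 0.22 with overlapping groups. The damage-signalling kinase ATR fell by 0.35, and CREBBP, the relative of EP300, fell by 0.21. The KAT5 call did not hold without FaDU shControl replicate 1 or 2 or FaDU shTP63 replicate 2 or 3 (adjusted p of up to 0.125), and the CREBBP call did not hold without FaDU shControl replicate 1 or FaDU shTP63 replicate 2 or 3 (adjusted p of up to 0.0763). Without the FaDU controls whose titles say new, which leaves 1 FaDU shControl array, the FaDU differences were 0.32 for COP1 and 0.076 for KAT5. They were -0.30 for ATR and -0.11 for CREBBP. TP73, which encodes p73, did not pass in either line (0.026 in FaDU and -0.062 in JHU-029).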

How the data were processed

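Messenger RNA was measured on 12 Affymetrix Human Gene ST arrays, 3 for each of 4 groups. Per the submitters' processing notes, the deposited values are linear intensity made by RMA, which corrects background, normalizes arrays by quantiles and summarises probes, and R 2.15.1 was named. The RMA software, its probe set definition and the arrays normalised together are not given in the sources used here. For all tests the authors' intensity values were turned into log2 values. Arrays hold no counts, so precision is limited by how many arrays there are.

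The platform annotation gave a single gene symbol to 19158 of the 32321 probe sets and several symbols to 1388, and it did not list the other 11775. RefSeq held 19128 of the single-symbol probe sets, with 0 changes of symbol. Each of the resulting 18404 genes was read from its probe set of highest mean, a choice that mattered for 637 genes. Groups came from the sample labels. The fit was a linear model of the 4 groups over the 12 arrays (limma 3.58.1, R 4.3.3), with 8 residual and 4.17 prior degrees of freedom. P-values are two-sided, and the Benjamini-Hochberg adjustment ran over every gene of a contrast, with a threshold of 0.05 and no filter. Intervals of 95% come from the same fit and are not adjusted. The script was tested on simulated data with known changes.

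The 10 genes, the wider lists and the markers were chosen with earlier results of these data known. All 10 genes are named, as are their paralogs, up to 4 genes per direction and line and 3 per direction of the difference from the wider lists, and the nearest profiles. Alternatives were the choice of probe set, 3 other scalings, a filter on dim genes, an intensity trend in the variance prior, fits per line, replicate blocks, and leaving out arrays.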

Additional observations from a re-analysis of the deposited data

Results flagged for a closer look

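A test of the FaDU effect minus the JHU-029 effect by limma passed the threshold for 25 of the genes named among the 10 targets, the wider list, the regulators and the paralogs. Those of the wider list and the regulators were picked by size among genes that passed this test or the test in a line. The count is therefore not read as a result. Over all genes 8.25% were lower and 4.97% higher by this test. The values below are log2 differences between effects. Among the 10 p53 target genes, CDKN1A (-0.72), SFN (-0.89), GADD45A (-1.27), MDM2 (-0.57) and FAS (-0.69) were negative, and TP53AIP1 (1.04) and TP53INP1 (1.12) were positive, with the levels of both in FaDU below the median of every array. In the wider list FUCA1 (1.41), LIF (1.46), TGM2 (1.29), IGFBP3 (0.69) and PLK2 (0.38) were positive, with the levels of LIF in JHU-029 below the median of every array. SULF2 (-1.08), KITLG (-1.46), TSKU (-0.66), AEN (-0.56), CMBL (-0.77), E2F7 (-0.40) and THBS1 (-0.84) were negative. Of the regulators, EP300 (0.41) was positive and ATR (-0.46) was negative. Of the paralogs, CDKN1B (0.50), CCNG2 (0.50) and SESN3 (1.34) were positive and YWHAG (-0.30) was negative. With replicate numbers as a fixed block in the limma fit, the ATR, E2F7 and YWHAG differences did not hold (adjusted p = 0.0674, 0.0552 and 0.0775). The ATR difference was -0.41 without the FaDU controls whose titles say new.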

How the results depend on the processing

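In FaDU the 5 falls and the rise of TP53INP1, and in the test between the effects the 7 calls among the 10 genes, held in all alternatives run, as did the fall of TP53AIP1 in JHU-029. Rises in FaDU went to 2, by BBC3, with quantile normalization repeated, cyclic loess, median centring, dim genes left out or an intensity trend, and were 1 to 2 with 1 array left out. Falls in JHU-029 went to 2, by SFN, with the intensity trend. Rises in JHU-029 were 0 to 1 with 1 array left out. Whether the replicate numbers pair the samples is not known. Deviations of same-numbered arrays correlated at -0.339 to 0.0134, and those of differently numbered arrays of a line at -0.133 to 0.294. Such correlations cannot show whether samples were handled as pairs. With the replicate numbers as a fixed replicate block, no gene of the 10 rose in JHU-029 (0, with CCNG1 at adjusted p = 0.114), and of the wider list 1 rose and 0 fell. YWHAE in FaDU did not pass with that block either (adjusted p = 0.0695). The wider list in JHU-029 otherwise gave 4 to 9 rises and 0 to 3 falls with 1 array left out, and 4 falls with each line fitted alone.

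Signs turned only for differences that did not pass. BBC3 in JHU-029 came to 0.0037 with cyclic loess and 0.0028 with median centring, and to -0.12 to 0.080 with 1 array left out. BBC3 between the controls came to -0.0198 with cyclic loess, -0.0426 with median centring, -0.097 without the FaDU controls titled new, and -0.094 to 0.067 with 1 array left out. Without those controls CCNG1 in FaDU was -0.0501 and TP53AIP1 in FaDU was 0.11. SESN1 in JHU-029 was 0.0027 with cyclic loess. Leaving out 1 array gave -0.026 to 0.097 for CDKN1A, -0.048 to 0.20 for TP53INP1 and -0.066 to 0.039 for SESN1 in JHU-029, -0.012 to 0.094 for CCNG1 and -0.022 to 0.10 for SESN1 in FaDU, and -0.017 to 0.11 for SESN1 in the difference between the effects. The cause of these shifts was not tested. Scaling moved the median of all genes by under 0.1. With 3 arrays per group, small differences and levels below the array medians are poorly resolved.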
